A study of Mus musculus with 8 samples.

Results

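Bone marrow-derived macrophages (BMDMs) of Trex1-/- mice (Trex1-KO) were compared with those of wild-type (WT) mice by RNA-seq, to describe what loss of Trex1 did across the genome outside M7core, the set of mouse genes that the study assembled as a core signature of cGAS-STING signaling. The comparison rests on 4 of the 8 libraries of the series, chosen by their labels: 2 from WT and 2 from Trex1-KO cells, all given only the vehicle DMSO for 12 h. The other 4 libraries came from Trex1-KO cells given a STING antagonist, H151 or SN-011. Their levels are quoted only where they bear on the genotype. They also entered the fit, and so shared in the gene filter, the scaling and the estimate of spread. Mice were 6 to 8 weeks old, marrow came from tibia and femur, and cells were cultured for 7 days in medium with L929 cell supernatant, a source of the macrophage growth factor CSF1. Per the study's methods, the mice were of the C57BL/6J strain, the Trex1-/- mice were bred from heterozygous parents, and the WT mice were purchased. WT and knockout mice were therefore not littermates, and a difference in breeding cannot be told apart from the genotype. The knockout is germline, so the marrow had developed without Trex1 before the culture began. The study describes the 2 replicates of each group as independent experiments. The sources used here do not state how many mice stand behind a library, nor whether the replicates came from separate mice, so the p-values measure the spread between these experiments.

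TREX1 is an exonuclease that degrades DNA in the cytosol. When it is missing, DNA that accumulates there can be bound by the sensor cGAS, which makes a cyclic dinucleotide that activates STING, and STING signaling induces type I interferon and, through it, interferon-stimulated genes. In people, loss of TREX1 causes interferon-driven inflammatory disease, and macrophages are among the cells in which this pathway is most studied.

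The Trex1 label could not be checked from expression. Trex1 (ENSMUSG00000049734, GRCm38 chr9:109057933-109059734, minus strand) had 0 counts in all 4 libraries, and all 1147 of its exonic bases also lie in exons of Atrip, so that reads from it could not be assigned to Trex1 alone. Levels are given as CPM, counts divided by the scaled library total. Atrip itself, which encodes the partner of the checkpoint kinase ATR, was at 14.1 and 17.4 CPM in WT and 64.8 and 70.4 in Trex1-KO (4.28-fold higher, adjusted p = 7.16e-09 in edgeR's quasi-likelihood test), and reads of its own exons and of the overlapped ones cannot be told apart in these counts. Markers of macrophages were high in both genotypes: the 15 markers summed to 44010 and 42197 CPM in WT and to 44242 and 46019 in Trex1-KO. Of these 15, 6 were called higher (3 with total counts only, a scaling given below, 3 without WT replicate 1, and 4 without WT replicate 2 or Trex1-KO replicate 2) and none lower. Csf1r, the CSF1 receptor, was at 4982 and 4987 CPM in WT and 5072 and 4969.8 in Trex1-KO, and Lyz2 and Mertk were likewise not called. Library totals were 13146808 and 14252747 counts in WT and 13542902 and 15600789 in Trex1-KO, and a floor of 3 counts corresponded to 0.198 to 0.226 CPM.

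A gene was called when its adjusted p in edgeR's quasi-likelihood test was below 0.05. Of 14591 genes tested, 2390 were called (16.4%), 1352 of them higher (9.27%) and 1038 lower (7.11%) in Trex1-KO. Outside M7core, 14439 genes were tested and 2263 were called (15.7%), with 1228 higher (8.5%) and 1035 lower (7.17%). Changes of at least 2-fold were called for 893 of all tested genes (6.12%), 383 higher (2.62%) and 510 lower (3.5%). The libraries of the genotypes did not overlap for 56.1% of all tested genes, so that separation of 2 against 2 libraries is common in these data and is not by itself a call.

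Rises and falls outside M7core differed in size and in level. The genes called higher had a median log2 fold change of 0.46, a 1.38-fold difference, and a median average level of 66.6 CPM. Those called lower had a median of -0.98, a 1.98-fold difference, and a median level of 11.3 CPM. A change of at least 2-fold was seen for 305 of the genes called higher (2.11% of those tested) and 508 of those called lower (3.52%). Most rises were small, with 737 under 1.5-fold, while 464 of the falls lay between 2-fold and 4-fold. At the far end the order turned, with 55 genes more than 8-fold higher and 13 more than 8-fold lower.

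The balance of calls between higher and lower depended on the scaling. Among genes outside M7core above 256 CPM, 28.5% were called higher and 6.94% lower. Between 4 and 16 CPM, again outside M7core, 5.02% were called higher and 11.3% lower. Scaled by total counts in place of TMM factors, the median log2 fold change over all tested genes was -0.087, against -0.0020 with TMM. Over all tested genes, M7core included, the calls split into 946 higher and 1598 lower (37.2% higher, against 56.6% with TMM). Outside M7core, the shares above 256 CPM came to 18.2% higher and 15.1% lower. For the lists whose counts of calls moved most with the scaling, both counts are given below. The single call in the less frequent direction was lost on leaving out at least 1 library for the lists of interferon receptors and factors, chemoattractant receptors, MHC class I, MHC class II, the unfolded protein response, autophagy, and cholesterol and fatty acid synthesis.

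**Figure D1:**
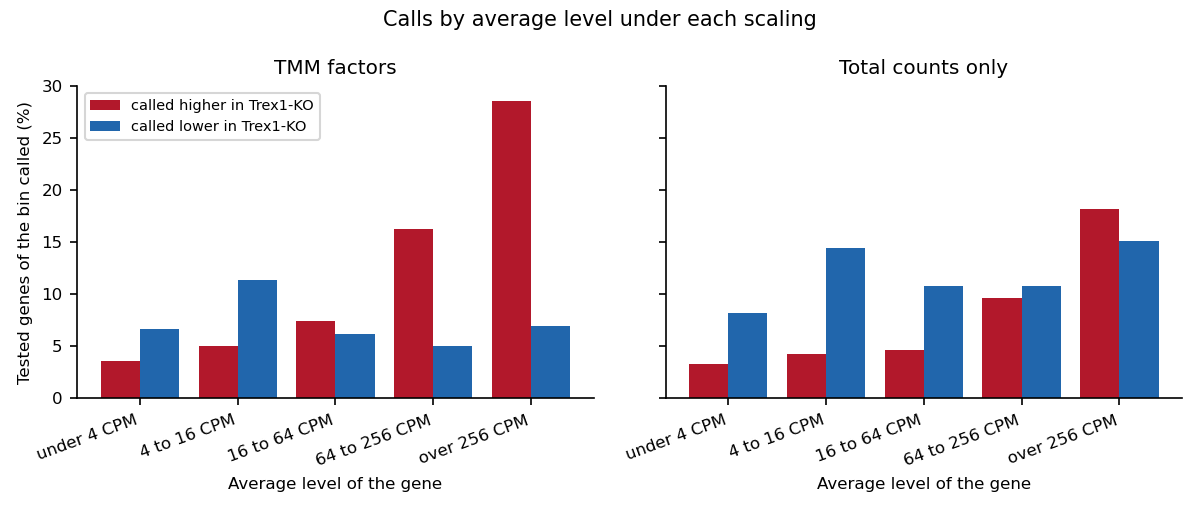
Share of tested genes outside M7core called higher or lower in Trex1-KO (vertical axis, %) by the average level of the gene in CPM (horizontal axis), with TMM factors at left and total counts only at right. Above 256 CPM, 28.5% were called higher and 6.94% lower with TMM, and 18.2% and 15.1% with total counts only.

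Among the 12 largest rises outside M7core were Ly6a, Slfn4, Slfn1 and Ms4a4c of the list of interferon-induced effectors. Ly6a (ENSMUSG00000075602, GRCm38 chr15:74994877-74998031), which encodes the surface antigen Sca-1, rose by 37.5-fold. Slfn4 and Slfn1, members of the Schlafen family of interferon-induced growth regulators, rose by 33.7-fold and 25.7-fold. Ifi213, Ifi206 and Ifi208, also among the 12, belong to the Ifi200 family on chromosome 1, whose proteins carry pyrin or HIN domains and include sensors of DNA. Because the family arose by duplication, reads may be divided among near-identical copies, and the level of a single member is uncertain.

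The start regions of Ifi213, Ifi206 and Ifi208 are shown because, of the 10 among the 12 largest rises with a listed RefSeq promoter (250 bases before to 50 after the start, GRCm38.p6), these 3 hold GAAA, any 2 bases and GAAA. The other 7, Slfn4, Slfn1 and Ms4a4c among them, do not. The motif is the core of the interferon-stimulated response element, through which type I interferon activates transcription. The match is in capitals, and each sequence is written 5′ to 3′ on the strand of the gene.
Ifi213, chr1:173599291-173599390, minus strand: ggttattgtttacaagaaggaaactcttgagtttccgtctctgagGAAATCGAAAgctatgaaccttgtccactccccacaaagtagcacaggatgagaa
Ifi206, chr1:173491319-173491403, minus strand: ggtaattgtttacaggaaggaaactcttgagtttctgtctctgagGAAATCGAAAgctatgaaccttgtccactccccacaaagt
Ifi208, chr1:173673562-173673661, plus strand: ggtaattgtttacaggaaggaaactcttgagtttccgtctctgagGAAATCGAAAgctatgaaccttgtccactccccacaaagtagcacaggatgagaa
The match began 73, 40 and 58 bases before the listed start in Ifi213, Ifi206 and Ifi208. Ifi213 and Ifi208 differed at 2 of 100 positions, Ifi213 and Ifi206 at 3 of 85, and Ifi206 and Ifi208 at 1 of 85, so the 3 matches lie in near-identical sequence and are not independent of each other.

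Searched on both strands, this motif was found in 28 of the 185 genes with a listed promoter among those called at least 2-fold higher outside M7core (15.1%). The share was 5.61% among those called higher by less than 2-fold, 3.12% among those called at least 2-fold lower, 3.05% among genes that were not called, and 45.2% in M7core itself. Over all tested genes with a promoter it was 4.02%. TTC, any 3 bases and GAA, the core of the element that responds to interferon-gamma, which can overlap the first motif, was found in 11.9% of the at least 2-fold higher genes, 7.08% of the at least 2-fold lower genes and 8.19% of all tested genes. These are matches of letters in a short window, and binding was not measured.

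Read by library, the steps were wide against the spread of replicates. Ly6a was at 11.6 and 11.05 CPM in WT and at 412 and 436 in Trex1-KO (log2 fold change 5.23, SE 0.16, adjusted p = 2.03e-10). Slfn4 went from 5.74 and 4.61 CPM to 175 and 173, and Slfn1 from 3.31 and 2.91 to 82.8 and 77.4. Neither WT library came near either knockout library for these genes, but a large rise and non-overlapping libraries were conditions used to choose them. Ifi213 was at 20.8 and 18.8 CPM in WT and 277 and 268 in Trex1-KO (log2 fold change 3.78, SE 0.10, adjusted p = 7.32e-11). Ifi206 was at 12.5 and 8.47 against 107 and 91.4 CPM, and Ifi208 at 8.69 and 4.68 against 62.0 and 51.1. Ms4a4c, a membrane protein of the MS4A family, was at 8.32 and 5.56 CPM in WT and 63.2 and 66.3 in Trex1-KO.

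The other 5 of the 12 largest rises were C2, Chil3, Lcn2, Ngp and Ltf, all at low levels in WT. C2, a protease of the complement cascade, was at 1.10 and 0.407 CPM in WT and 10.4 and 9.83 in Trex1-KO, with 46.9% of its exonic bases shared with other genes. Chil3, a chitinase-like protein of activated macrophages and granulocytes, was at 0 and 0.949 against 6.41 and 6.92 CPM. Lcn2, Ngp and Ltf encode proteins of neutrophil granules, and are taken up with the other neutrophil markers below.

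**Figure D2:**
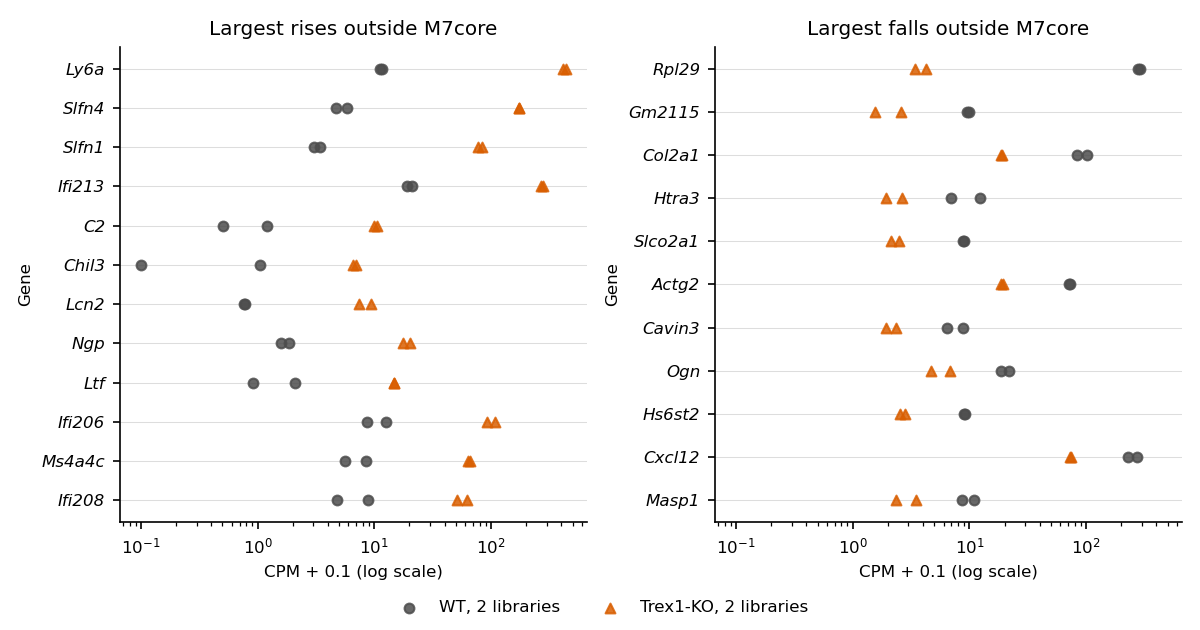
Levels of the 12 protein-coding genes outside M7core with the largest rise and 11 of the 12 with the largest fall, as CPM + 0.1 on a log axis, for each of the 2 WT (circles) and 2 Trex1-KO (triangles) libraries. The genotypes do not overlap for any gene shown, a condition used to choose them, with Ly6a at 412 and 436 CPM against 11.6 and 11.05 and Rpl29 at 4.15 and 3.30 against 289 and 277.

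As a list, interferon-induced effectors rose almost throughout: 67 of 73 tested members were called higher and none lower, 54 by at least 2-fold, with a median log2 fold change of 1.55 against -0.0020 over all tested genes. With the 38 M7core members set aside, 29 of 35 were called higher. Adar, which edits double-stranded RNA, was at 93.6 and 85.3 CPM in WT and 192 and 176 in Trex1-KO. Samhd1, which depletes deoxynucleotides, rose by 1.54-fold from a high level, at 678 and 710.1 against 1062 and 1071 CPM. Among the guanylate-binding and immunity-related GTPases, which attack membranes of intracellular pathogens, 14 of 16 were called higher. With the 11 M7core members set aside, 4 of 5 were called higher. Counts for a list include its M7core members unless stated. Gvin1 went from 6.99 and 3.80 to 20.98 and 17.9 CPM, and Gbp8 from 6.99 and 6.10 to 15.5 and 17.5.

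Fewer of the genes upstream of these effectors were called. Of 30 interferon receptors, kinases and transcription factors, 12 were called higher (8 with total counts only) and 1 lower, with a median log2 fold change of 0.15. With the 5 M7core members set aside, 7 of 25 were called higher and 1 lower. Irf9, the DNA-binding subunit of the complex that type I interferon activates, was at 87.8 and 81.2 CPM in WT and 129 and 129.8 in Trex1-KO (log2 fold change 0.61, SE 0.07, adjusted p = 1.78e-05). Irf5, which acts downstream of Toll-like receptors, was at 173 and 168 against 240.3 and 232 CPM. The feedback inhibitor Socs2 was at 8.02 and 7.05 against 4.45 and 2.84 CPM, a call lost without Trex1-KO replicate 2 (adjusted p = 0.0748) and without WT replicate 1 (0.051).

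Most sensors of nucleic acid rose, and a smaller share of nucleases did. The shares called higher were 63.0% and 21.1%, against 9.27% over all tested genes. Adar and Samhd1, described above, are among the nucleases and related enzymes called higher. Of 27 genes of cytosolic DNA and RNA sensing, 17 were called higher and none lower, 13 by at least 2-fold, and 7 of the 17 tested outside M7core were among the calls. Ifi209, another Ifi200 member, was at 78.8 and 77.3 CPM in WT and 401 and 351 in Trex1-KO. Aim2, which assembles an inflammasome on DNA, was at 48.1 and 48.0 against 77.3 and 68.3 CPM. Of 19 nucleases and related enzymes that limit self nucleic acid, 4 were called higher (2 with total counts only, 2 without WT replicate 1 and 2 without Trex1-KO replicate 1) and none lower. Pld4, an endolysosomal exonuclease, was at 413 and 446 against 518 and 505 CPM, a call lost without WT replicate 1 (adjusted p = 0.127), without Trex1-KO replicate 1 (0.0668) and with total counts only (0.0675).

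The calls among Toll-like receptors and the NF-kappaB feedback circuit were all higher in Trex1-KO. Of 23 Toll-like receptors and adaptors, 10 were called higher (8 with total counts only, 6 without WT replicate 2) and none lower, with a median log2 fold change of 0.26. Tlr13, the receptor for bacterial ribosomal RNA, was at 204 and 209.7 CPM in WT and 336 and 290.2 in Trex1-KO. Of 21 NF-kappaB subunits, inhibitors and feedback genes, 11 were called higher (7 with total counts only), with a median of 0.31. That count was 4 without WT replicate 2, 4 without Trex1-KO replicate 1, 8 without Trex1-KO replicate 2 and 13 without WT replicate 1. Traf1, a signaling adaptor, was at 12.3 and 9.29 against 28.8 and 25.8 CPM, and Tnip3, an inhibitor of the pathway, at 40.1 and 28.1 against 59.7 and 55.9.

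The WT libraries differed from each other for several inflammatory genes, which limits those comparisons. Acod1, the enzyme that makes itaconate, was at 13.6 CPM in WT replicate 1 and 1.69 in WT replicate 2, against 44.0 and 38.8 in Trex1-KO. Ccl5 was at 10.01 and 2.64 against 23.01 and 17.9 CPM, Tnf at 7.14 and 2.44 against 18.5 and 16.2, and Clec4e at 53.1 and 17.6 against 75.8 and 86.6. All 4 were called higher by edgeR, but DESeq2 gave adjusted p = 0.0626 for Acod1, 0.06 for Ccl5 and 0.171 for Clec4e. At least 2-fold differences separated the WT libraries for 67 genes higher in replicate 1 and 48 higher in replicate 2, and the Trex1-KO libraries for 131 genes. Saa3, an acute phase protein chosen here after its values were seen, was at 18.2 and 0.610 CPM in WT and 13.9 and 22.03 in Trex1-KO.

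Most chemoattractant receptors rose. Of 19 receptors, 13 were called higher and 1 lower, with a median log2 fold change of 0.52. Ccr2, the receptor that draws monocytes to inflamed tissue, was at 20.3 and 17.3 CPM in WT and 78.4 and 76.3 in Trex1-KO (log2 fold change 2.04, SE 0.10, adjusted p = 8.19e-09), and Ccrl2, a receptor that presents chemerin, at 15.2 and 18.1 against 66.4 and 55.1. Of 21 chemokines, 9 were called higher and 3 lower. Ccl4, which attracts monocytes and T cells, was at 12.3 and 11.4 against 23.8 and 26.6 CPM. Cxcl12, a stromal chemokine that retains progenitors in marrow, fell from 272 and 229 to 72.3 and 74.7 CPM, and Cxcl14 fell from 43.0 and 46.4 to 26.6 and 30.1.

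Cytokines moved in both directions, with 9 of 26 called higher and 6 lower. Tnfsf10, the death ligand TRAIL, was at 6.33 and 4.34 CPM in WT and 25.1 and 17.7 in Trex1-KO. Csf1, the growth factor of macrophages, was at 181 and 149 against 86.4 and 80.7 CPM (log2 fold change -0.98, SE 0.08, adjusted p = 2.06e-06). Tgfb2 was at 24.1 and 20.3 against 10.3 and 9.23 CPM, and Lif, a cytokine of the interleukin-6 family, at 6.70 and 7.32 against 3.47 and 1.98. Both knockout libraries were lower than both WT libraries for these last 3, as for all 1035 genes called lower outside M7core, so this adds nothing to the calls.

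Most genes of MHC class I and class II presentation were called higher. Of 28 genes of MHC class I and peptide loading, 23 were called higher and 1 lower, with a median log2 fold change of 0.70, and 13 of the 17 outside M7core were called higher. The nonclassical class I genes H2-Q6, H2-Q7 and H2-Q5 were at 7.32 to 11.6 CPM in WT and 28.7 to 63.0 in Trex1-KO, with the caution that these paralogs may share reads. Of 14 genes of MHC class II presentation, 9 were called higher and 1 lower. H2-Aa was at 14.9 and 17.1 CPM in WT and 58.3 and 56.2 in Trex1-KO, H2-Eb1 at 13.4 and 14.7 against 42.5 and 41.0, and H2-Ab1 at 20.02 and 19.2 against 51.8 and 63.4. All 3 are chains of the class II molecule and all stayed called when any single library was left out. Markers of conventional dendritic cells, which present antigen on class II, did not move one way. Of 6 tested, 3 were called higher (2 with total counts only, 0 without WT replicate 2, 1 without Trex1-KO replicate 1) and none lower. Xcr1 had 3 and 1 counts against 16 and 15, and Clec9a 5 and 3 against 24 and 26. Both could pass the count filter only through knockout libraries, so being tested already favored a higher call. Zbtb46 and Batf3, which define these cells and were not called, were at 1.91 and 0.949 against 0.604 and 0.528 CPM and at 2.87 and 2.98 against 1.74 and 2.77. The 10 listed summed to 131 and 124 CPM in WT and 157 and 153 in Trex1-KO, of which Wdfy4 alone gave 124 and 118 in WT and 150.8 and 145 in Trex1-KO, and the part of dendritic cells in the rise of class II genes was not tested. Of 20 costimulatory and checkpoint ligands, 8 were called higher and 1 lower (2 without Trex1-KO replicate 1). Slamf7 was at 70.7 and 67.8 against 179.7 and 152 CPM, and Cd40, through which T cells activate macrophages, at 16.3 and 11.4 against 30.1 and 24.9.

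**Figure D3:**
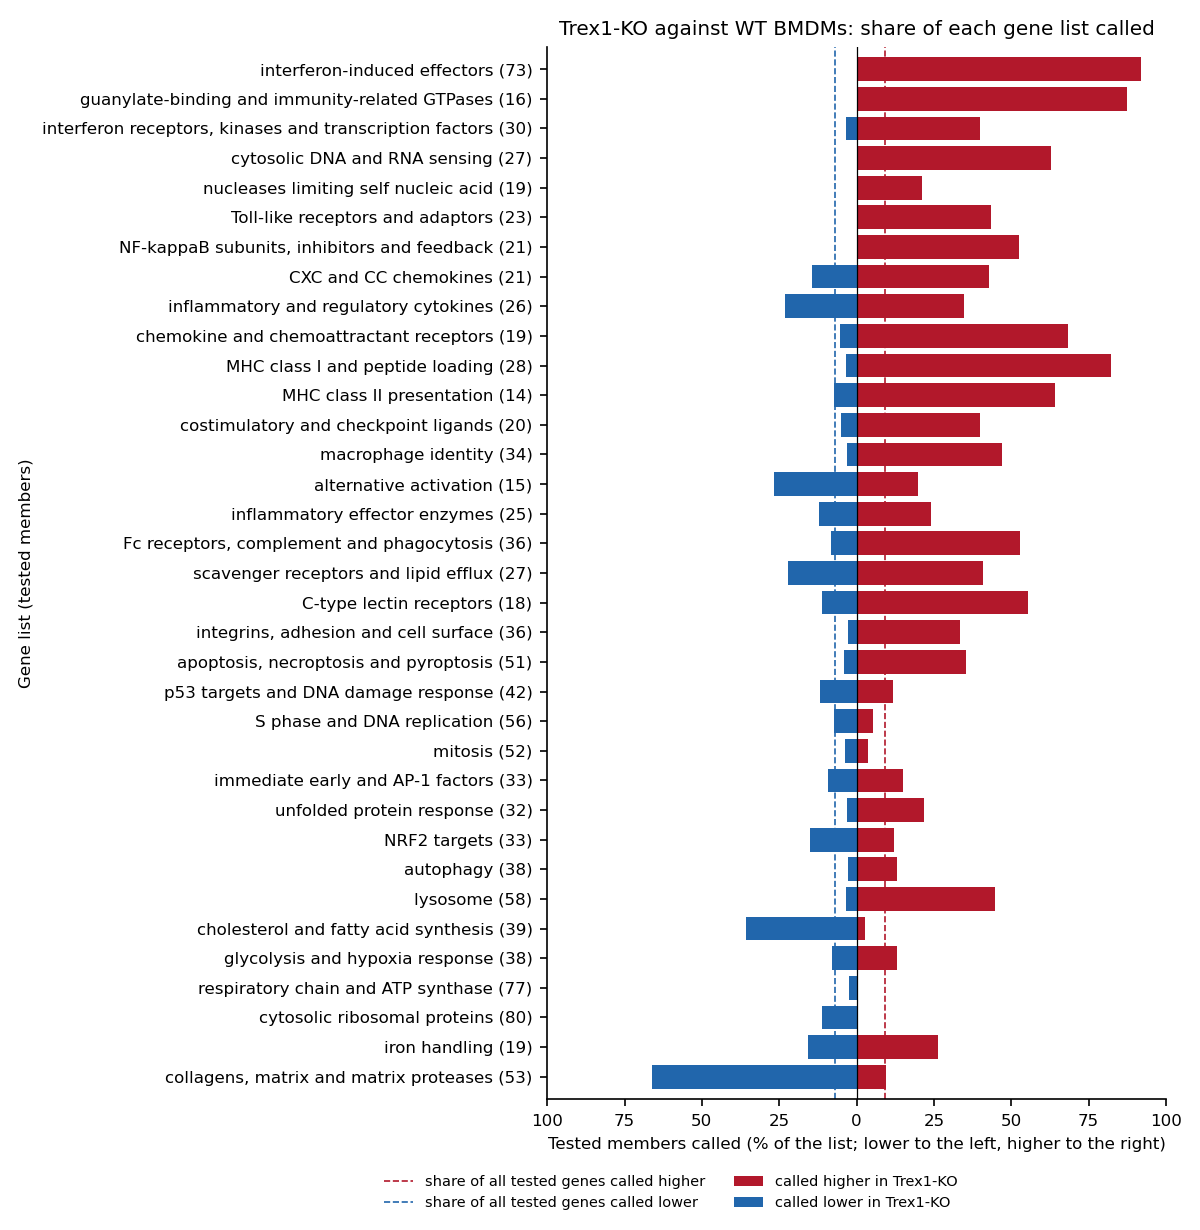
Percent of the tested members of each gene list called higher (right of 0) or lower (left of 0) in Trex1-KO, with the number tested in brackets. M7core members are included. Dashed lines give the shares over all tested genes, 9.27% higher and 7.11% lower. Interferon-induced effectors reach 67 of 73 called higher, and collagens, matrix and matrix proteases 35 of 53 called lower.

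The calls among genes of macrophage identity were mostly higher in Trex1-KO. Of 34 macrophage identity genes, 16 were called higher (10 with total counts only, 10 without WT replicate 2) and 1 lower. Siglec1, a sialic acid receptor and a known interferon-stimulated gene, was at 567 and 605 CPM in WT and 1701 and 1526 in Trex1-KO (log2 fold change 1.46, SE 0.06, adjusted p = 3.75e-09). Nr1h3, the sterol-sensing receptor LXR alpha, was at 13.0 and 10.7 against 29.96 and 30.8 CPM. Cd68 and Mpeg1 rose by 1.35-fold and 1.26-fold. Marco, a scavenger receptor, was the member that fell, from 10.8 and 2.85 CPM in WT to 0.377 and 0.396 in Trex1-KO, with a wide gap between the WT libraries.

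Receptors for antibody and complement components also rose. Of 36 genes of Fc receptors, complement and phagocytosis, 19 were called higher (14 with total counts only) and 3 lower. Fcgr1, the high-affinity IgG receptor, was at 241 and 225 CPM in WT and 493 and 533 in Trex1-KO. C4b was at 8.10 and 5.76 against 24.8 and 22.4 CPM. Mfge8, which bridges phagocytes to apoptotic cells, fell from 113 and 93.1 to 57.8 and 50.6 CPM.

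Scavenger receptors and genes of lipid efflux had 11 of 27 called higher and 6 lower. Cd5l, a secreted target of LXR that protects macrophages from apoptosis, was at 131 and 109.9 CPM in WT and 341 and 377 in Trex1-KO. Lpl and Cd36, which release and take up fatty acids, rose by 1.62-fold and 1.47-fold. Colec12 fell from 74.3 and 69.2 to 41.0 and 38.6 CPM. Alternative activation genes showed no single direction, with 3 of 15 called higher and 4 lower (2 lower without WT replicate 1 or Trex1-KO replicate 2): Clec7a, the beta-glucan receptor dectin-1, was at 226 and 227 against 305 and 303 CPM, and Clec10a at 60.9 and 66.1 against 42.3 and 45.9.

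C-type lectin receptors, adhesion molecules and inflammatory effector enzymes also had calls in both directions. Of 18 C-type lectin receptors, 10 were called higher and 2 lower, and Clec4n, the receptor dectin-2, was one of the falls, from 99.4 and 103 to 57.1 and 68.0 CPM. Of 36 integrins and adhesion molecules, 12 were called higher and 1 lower (2 without WT replicate 1 or Trex1-KO replicate 1). Itgb7 was at 0.662 and 0.474 against 4.60 and 4.95 CPM, and Vcam1 at 13.1 and 9.08 against 26.6 and 23.6. Of 25 inflammatory effector enzymes, 6 were called higher and 3 lower, and without WT replicate 2 these counts were 3 and 1. Cybb, the catalytic subunit of the phagocyte NADPH oxidase, was at 1264 and 1062 against 1756 and 1746 CPM, and Gch1, which starts the synthesis of tetrahydrobiopterin, at 13.3 and 11.6 against 21.7 and 23.4.

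Among genes of death, damage and growth, the death genes gave the most calls. Of 51 genes of apoptosis, necroptosis and pyroptosis, 18 were called higher (12 with total counts only) and 2 lower (0 without WT replicate 1, without Trex1-KO replicate 2 or with DESeq2, and 1 without either other library). Bcl2a1d, an inhibitor of apoptosis with near-identical paralogs, was at 7.51 and 10.03 CPM in WT and 24.4 and 21.4 in Trex1-KO, and Mefv, which encodes pyrin, at 6.11 and 5.76 against 12.8 and 12.3. Of 42 p53 targets and DNA damage genes, 5 were called higher and 5 lower, with a median log2 fold change of -0.02. Of 56 genes of S phase and replication, 3 were called higher and 4 lower, and of 52 mitotic genes 2 and 2. With total counts only, the p53 counts were 3 and 5, the replication counts 2 and 7, and the mitotic counts 1 and 4. With any 1 library left out, the p53 counts fell to 3 or 4 higher and 1 or 2 lower, the replication counts were 2 higher and 1 to 4 lower, and the mitotic counts 0 to 1 higher and 1 to 2 lower. The shares of replication and mitotic genes called lay near or below those over all tested genes. Mki67, a proliferation marker named after its values were seen, was at 34.8 and 30.5 against 35.7 and 33.5 CPM.

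Stress programs gave calls in both directions. Against 9.27% higher and 7.11% lower over all tested genes, the shares were 15.2% and 9.09% for immediate early factors, 21.9% and 3.12% for the unfolded protein response, 12.1% and 15.2% for NRF2 targets, 13.2% and 2.63% for autophagy, and 26.3% and 15.8% for iron handling. Of 33 immediate early and AP-1 factors, 5 were called higher and 3 lower (8 lower with total counts only, 1 without WT replicate 2, 5 without Trex1-KO replicate 1). Batf2, an interferon-induced member, was at 5.52 and 4.61 against 19.0 and 17.6 CPM. The unfolded protein response had 7 of 32 called higher (4 without either WT library) and 1 lower, and Hspa5, the endoplasmic reticulum chaperone BiP, rose by 1.26-fold. NRF2 targets had 4 of 33 called higher (1 to 3 with any 1 library left out, 1 with total counts only) and 5 lower (3 without WT replicate 2), and autophagy genes 5 of 38 higher (1 to 2 with any 1 library left out, 1 with total counts only) and 1 lower. Iron handling had 5 of 19 called higher (3 without Trex1-KO replicate 1, 3 with total counts only) and 3 lower (1 without WT replicate 2, 5 with total counts only), and Slc40a1, the iron exporter ferroportin, fell from 598 and 649 to 407 and 441 CPM.

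Lysosomal genes and genes of lipid synthesis differed in direction. Of 58 lysosomal genes, 26 were called higher (17 with total counts only) and 2 lower (1 without Trex1-KO replicate 2), with a median log2 fold change of 0.18, and the list summed to 52759 and 53903 CPM in WT and 63411 and 63015 in Trex1-KO. Ctse, an endosomal protease, was at 9.05 and 8.07 against 20.9 and 16.2 CPM, while Glb1, a galactosidase, fell from 125 and 124 to 65.4 and 58.7. Of 39 genes of cholesterol and fatty acid synthesis, 14 were called lower and 1 higher, with a median of -0.23. That count of falls was 3 without WT replicate 1, 5 without Trex1-KO replicate 2, 10 without WT replicate 2 and 12 without Trex1-KO replicate 1. Me1, which makes NADPH for fatty acid synthesis, was at 11.1 and 12.1 against 6.79 and 6.53 CPM, and stayed called without any single library.

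Energy and translation genes are read against the 9.27% called higher and 7.11% called lower over all tested genes. Of 38 genes of glycolysis and the hypoxia response, 5 were called higher (2 without WT replicate 2, 3 without WT replicate 1 or Trex1-KO replicate 2, 3 with total counts only) and 3 lower (5 with total counts only), or 13.2% and 7.89%. Of 77 genes of the respiratory chain and ATP synthase, 2 were called lower (2.6%) and none higher. Of 80 cytosolic ribosomal proteins, 9 were called lower (11.25%) and none higher. Over the alternatives that kept both libraries of each genotype, the lower calls ranged from 0 to 14 for the respiratory chain and from 6 to 53 for ribosomal proteins. The ribosomal count was 39 without Trex1-KO replicate 2, 2 to 3 without each of the other libraries in turn, and 43 with total counts only. The respiratory chain count was 10 without Trex1-KO replicate 2, 0 without each other library, and 12 with total counts only. Rpl29, a protein of the large subunit, stood apart from its list: it was at 289 and 277 CPM in WT and 4.15 and 3.30 in Trex1-KO (log2 fold change -6.26, SE 0.10, adjusted p = 2.11e-13).

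Most genes of collagens and matrix fell. Of 53 genes, 35 were called lower and 5 higher, 26 lower by at least 2-fold, with a median log2 fold change of -0.996. With any 1 library left out, 33 to 34 were called lower and 2 to 4 higher. Col1a1 and Col1a2, the chains of type I collagen, were at 949 and 862 and at 1175 and 1089 CPM in WT, against 484 and 376 and 503 and 418 in Trex1-KO. Col2a1, the collagen of cartilage, was at 101 and 83.0 against 18.8 and 18.7 CPM (log2 fold change -2.30, SE 0.11, adjusted p = 6.52e-09). Fbln2 and Adamts1, a matrix glycoprotein and a matrix protease, fell by 3.08-fold and 3.27-fold. The genes that rose included macrophage proteases: Mmp12 was at 9.50 and 6.91 against 18.1 and 15.2 CPM, and Adam8 at 374 and 430.3 against 685 and 649.

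Markers of stromal cells moved with these genes. Of 14 tested stromal and osteoblast markers, 12 were called lower and none higher, and the 16 listed, with the collagens among them, summed to 3340 and 3039 CPM in WT, 1426 and 1178 in Trex1-KO and 1309 to 1639 in the antagonist-treated Trex1-KO libraries. Acta2, the actin of smooth muscle and myofibroblasts, was at 498 and 459.6 against 179.5 and 154 CPM. Pdgfrb, a receptor of mesenchymal cells, was at 34.9 and 29.96 against 16.8 and 13.4 CPM, and Actg2 at 72.6 and 71.1 against 19.3 and 18.5. Dcn and Lum, defining fibroblast markers, were low in all 4 libraries, at 24 to 44 and 5 to 12 counts, and Bglap was at 0. In bulk RNA, fewer cells of a type and less RNA per cell cannot be told apart, and the part of stromal cells in the fall of matrix genes, of Cxcl12, or of Csf1 was not tested.

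Of the 508 genes called at least 2-fold lower outside M7core, 51 belonged to any list or marker set used here, and 33 of these were matrix genes or stromal markers. Of the 305 called at least 2-fold higher, 96 belonged to a list or marker set. The lists and marker sets held 1128 tested genes outside M7core, of which 61 were matrix genes or stromal markers. Over all genes tested outside M7core, 3.52% were called at least 2-fold lower and 2.11% at least 2-fold higher. Htra3, a secreted protease, went from 12.3 and 6.91 to 2.57 and 1.85 CPM, Hs6st2, a heparan sulfate sulfotransferase, from 8.83 and 9.01 to 2.72 and 2.44, and Masp1, a protease of the lectin pathway of complement, from 10.7 and 8.47 to 2.26 and 3.36. Ogn, a small proteoglycan of connective tissue, was at 21.9 and 18.5 against 4.60 and 6.66 CPM.

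Markers of other cell types also differed between the genotypes, at low levels. Of 8 tested neutrophil markers, 7 were called higher. Markers low in WT, such as Camp at 1 and 7 counts in WT and 44 and 64 in Trex1-KO, could pass the count filter only through knockout libraries. Being tested then already favors a higher call, here and in the other marker lists. S100a8 and S100a9, the subunits of calprotectin, were at 2.44 to 3.19 CPM in the WT libraries and 10.9 to 26.7 in the Trex1-KO libraries. Ngp was at 1.47 and 1.76 CPM in WT and 17.7 and 20.1 in Trex1-KO. Ltf, the iron-binding lactoferrin, was at 1.99 and 0.813 against 14.6 and 14.6 CPM. Lcn2, which binds bacterial siderophores and is not itself in the marker list, was at 0.662 and 0.678 against 9.36 and 7.25 CPM. The 12 markers listed summed to 260 and 287 CPM in WT and 427 and 412 in Trex1-KO, of which Csf3r, the receptor of granulocyte growth factor, alone gave 249.7 and 277 in WT and 360.3 and 324 in Trex1-KO. Ly6g, Mpo, Elane and Cxcr2 had at most 8 counts in any of the 4 libraries. The part of neutrophils in the rise of these granule genes was not tested.

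Endothelial markers had 5 of 9 called higher, and summed to 40.3 and 35.9 CPM in WT and 77.8 and 65.0 in Trex1-KO. Cdh5, the cadherin of endothelial junctions, was at 6.11 and 6.78 against 16.3 and 12.7 CPM. Of 5 tested B and plasma cell markers, 2 were called higher and 2 lower (1 and 1 without WT replicate 2). Igkc, the kappa light chain constant region, had 2 and 5 counts in WT and 107 and 111 in Trex1-KO, while Ighm, the constant region of IgM, fell from 40.3 and 37.5 to 12.5 and 11.9 CPM. Pax5, which defines B cells, had 0 counts in all 4 libraries. Of the other marker lists, plasmacytoid dendritic cells had 1 of 2 tested called higher, the interferon-induced M7core gene Bst2, megakaryocytes and platelets 2 of 5 (1 without WT replicate 1, WT replicate 2 or Trex1-KO replicate 2), osteoclasts 2 of 6 with 1 lower (1 higher with any 1 library left out, and 0 lower without Trex1-KO replicate 2), and T and NK cells 1 of 2 with 1 lower (0 higher without WT replicate 1). Neither of the 2 tested markers of mast cells and basophils nor of erythroid cells was called.

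The 4 Y-linked genes Ddx3y, Eif2s3y, Kdm5d and Uty also differed. Together they were at 366 and 367 CPM in WT, 121 and 130.2 in Trex1-KO, and 117 to 127 in the 4 antagonist-treated Trex1-KO libraries. Ddx3y alone was at 138 and 138 against 44.5 and 49.1 CPM (log2 fold change -1.56, SE 0.07, adjusted p = 7.16e-09). Xist, expressed from the inactive X chromosome, had 41 and 46 counts in WT and 54 and 54 in Trex1-KO and was not called. The labels give no sex, and the makeup of the mice behind the libraries cannot be told apart from the genotype in these values.

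**Figure D4:**
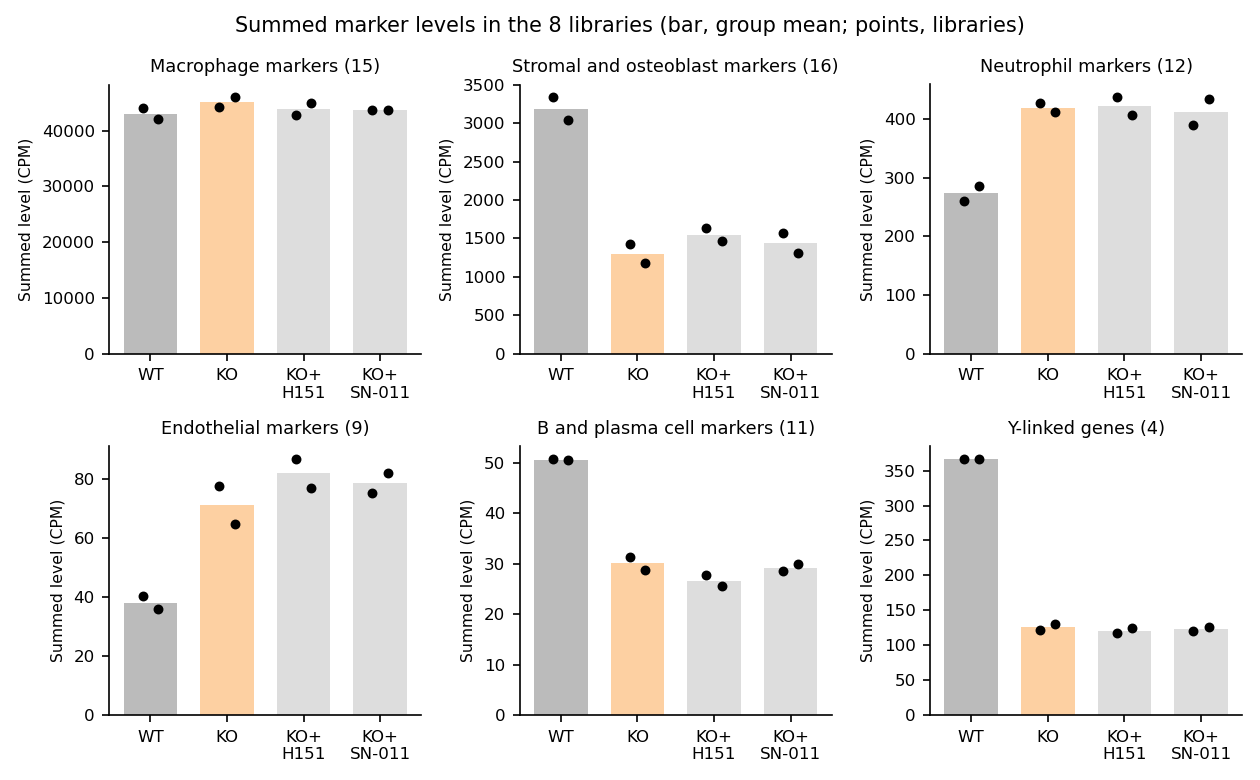
Summed levels (CPM, linear axes from 0) of 5 marker lists and of the 4 Y-linked genes in all 8 libraries, with bars for the mean of 2 libraries and points for the libraries. Stromal markers are at 3340 and 3039 in WT and 1426 and 1178 in Trex1-KO, Y-linked genes at 366 and 367 against 121 and 130.2, and macrophage markers between 42197 and 46019.

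Position on chromosome 9, where Trex1 lies, was compared because a knockout allele is inherited with its neighboring sequence. Within 5 Mb of Trex1, 30 of 133 tested genes were called (22.6%), between 5 and 10 Mb 15 of 53 (28.3%), on the rest of the chromosome 121 of 628 (19.3%), and on other chromosomes 2224 of 13777 (16.1%). By whole chromosome the share was 20.4% on chromosome 9, and chromosome 1 had 20.4% and chromosome 19 19.4%. Rpl29 lies within 5 Mb (GRCm38 chr9:106429454-106431568), and so do Ccrl2, Ngp, Ltf and Camp. Glb1 and Slco2a1, a prostaglandin transporter, lie between 5 and 10 Mb. The part of inherited neighboring sequence in these changes was not tested.

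A few genes were at or near 0 counts in 1 genotype. At most 3 counts in both WT libraries, with an average of at least 2 CPM in Trex1-KO, were found for 11 genes, and the reverse for 2. Csprs had 0 and 0 counts in WT and 50 and 75 in Trex1-KO, at least 20.6-fold higher when WT is set at the floor of 3 counts per library. Ighg2b, the constant region of IgG2b, had 0 and 0 against 59 and 46 counts, at least 17.6-fold higher. Tnfsf8, the CD30 ligand, had 1 and 0 counts against 51 and 41. In the reverse direction, Klhl13, on the X chromosome, had 25 and 33 counts in WT and 3 and 3 in Trex1-KO.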

How the data were processed

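The deposited tables of the 8 libraries hold raw read counts per gene (54532 Ensembl identifiers, 54495 of them matched in GENCODE M21). Per the study's methods, the authors made TruSeq polyA libraries, trimmed reads with Trimmomatic, aligned them with hisat2 and counted unique pairs with featureCounts. The submitters' processing notes name HISAT2, HTSeq and mm10, so the counter is named differently in each source. The methods also name a strand-specific library instruction; whether counting used strand is not given in the sources used here, so reads of overlapping or antisense genes may not be told apart.

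Counts were analyzed in R 4.3.3 with edgeR 4.0.16 (filterByExpr at its settings of 10 counts and a total of 15, TMM factors, glmQLFit and glmQLFTest, two-sided). All 8 libraries entered 1 fit with 1 mean per group, and p-values were adjusted by Benjamini-Hochberg over the 14591 tested genes with a threshold of 0.05. The common biological coefficient of variation was 0.0656. CPM used TMM-scaled totals and were not divided by gene length, so the level bins and list sums weight long genes more. Log2 fold changes are Trex1-KO minus WT. Alternatives were scaling by total counts or RLE size factors, DESeq2 1.42.0 and other count filters. Others were the main test and edgeR's exact test on the 4 WT and Trex1-KO libraries, and a replicate block. Each library in turn, and genes near Trex1, were also left out.

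The members, the 36 gene lists, the 12 marker lists and the M7core list (159 genes, 152 tested) were chosen with earlier results of these data known, and lists are described by counts and medians with no set test. Genes were named by rule: the 12 largest rises and falls outside M7core (called, protein coding, average log2 CPM of at least 2, non-overlapping libraries), up to 3 rises and 3 falls per list with M7core genes last, the markers, and genes at or under 3 counts in a genotype. Promoters were those of RefSeq on GRCm38.p6. Depth allowed a floor of 3 counts, which covers counting error only. A few genes that the rule names are not reported here.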

Additional observations from a re-analysis of the deposited data

How the results depend on the processing

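The number of genes called depended most on the WT libraries. The 2390 calls became 1556 without WT replicate 1 and 1583 without WT replicate 2, and ranged from 1556 to 1933 with any 1 library left out. The 1352 higher calls ranged from 835 to 1099 and the 1038 lower calls from 654 to 834 over the same refits, the lowest being those without WT replicate 2 and without WT replicate 1. Calls outside M7core ranged from 1438 (without WT replicate 1) and 1471 (without WT replicate 2) to 1812, against 2263, and calls of at least 2-fold from 685 to 821, against 893. These refits leave a group with 1 library, which is then assumed to vary like the others. Scaling by total counts raised the lower calls to 1598. DESeq2 gave 1838 calls and edgeR's exact test 2692. The sources used here do not say that replicate numbers mark shared mice, and the replicate 1 deviations of WT and Trex1-KO correlated at 0.06 across genes, so WT and Trex1-KO were not treated as paired. With a replicate block, 2611 genes were called, 1451 higher and 1160 lower, 925 by at least 2-fold and 2482 outside M7core, and the same side of the threshold was kept by all 246 tested genes named by rule. No called named gene changed direction under the alternatives run, but with total counts only the medians of 5 lists near 0 turned negative (alternative activation, inflammatory effector enzymes, mitosis, immediate early and AP-1 factors, and autophagy). Of the named genes, 23 lost their call with DESeq2 and 14 with total counts only, and 31 to 45 when a given library was left out. Rises or falls smaller than the spread of 2 libraries were not detectable at this depth and number of replicates.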
